A study of Mus musculus with 48 samples.

Results

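Captured methylated DNA was compared between the colon and the ileum of the same germ-free mice. The comparison took 14 of the 48 libraries of the series, 1 from the ileum and 1 from the colon of each of 7 mice labelled GermFree, and read 94535 autosomal regions of the 95882 regions in the deposited table of counts. Libraries were paired by mouse, so the replicate is the mouse and n = 7 throughout unless stated. The other mice of the series, 5 labelled ConvR (conventionalised, in the words of the series' design), had the same sections taken and serve below as a second set of 5 pairs. The labels give no strain, sex, age, diet or housing beyond the germ-free or conventionalised state, and do not say how much of each section was taken or which layers of the gut wall it held. Each library may therefore mix epithelial, immune, stromal, muscle and nerve cells in shares that are not known. A change in the share of a cell type and a change of methylation within a cell type cannot be told apart in such bulk DNA. Captured DNA is not expression, so the labelled section was not checked against marker levels.

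Cytosine methylation in mammals sits mainly at CpG, a cytosine followed by a guanine. In the assay used here, sheared DNA is bound by a methyl-CpG-binding domain on beads, and the bound fragments are sequenced. The count of a region rises with its methylation, with its number of CpGs and with the number of copies of it in the genome. The ileum, the last part of the small intestine, absorbs bile acids and vitamins through villi and holds Paneth cells and lymphoid follicles. The colon has no villi, absorbs water and salt, carries many goblet cells and is in conventional animals the site of the densest microbiota. The identity of each section along the gut is held by regional transcription factors and by the HOX genes, and DNA methylation is known to differ between intestinal sections at enhancers used by these programmes.

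With the scaling used throughout, 922 of 68863 tested regions (1.34%) had more captured DNA in colon than in ileum and 484 (0.703%) less, while scaling by library totals gave 704 and 714. The higher regions were wide and deeply counted with small differences, and the lower ones shorter with larger differences. Regions lower in colon included sites in Gli2, a transcription factor of hedgehog signalling, in Arhgef17, a guanine nucleotide exchange factor, and beside Foxa1, a pioneer factor of gut endoderm. Regions higher in colon included sites in Abcg2, an efflux pump of the gut epithelium, in Ugt1a1, an enzyme that conjugates bilirubin and drugs (log2 0.40, but 0.08 and not past the threshold with offsets fitted to abundance), and 36 stretches of neighbouring regions, many of them in families of similar gene copies such as Klra, Pramel and clustered Zfp genes.

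Sequences at gene starts describe only a small part of the called regions. A whole start-site window lay inside 62 of the 922 regions higher in colon and 14 of the 484 lower ones. Of 31396 autosomal start-site windows of RefSeq (GRCm38.p6, the coordinates of mm10; 250 bases before to 50 after each start), 1933 (6.16%) lay wholly inside a deposited region, with a median of 6 CpGs. Inside regions lower in colon lay 15 windows of 14 genes with a median of 9 CpGs, and inside regions higher in colon 68 windows of 64 genes with a median of 2. Among the 250 bases before each start, 92.4% of all autosomal windows held the letters CG at least once, with a median of 6 and an interquartile range of 2 to 16. The following 6 stretches of 250 bases before a start were chosen after the values were seen. They are printed because they are the 3 protein-coding starts inside regions lower in colon, 2 starts of the clearance genes described below and 1 start of the largest stretch. Each runs 5′ to 3′ on the strand of its gene, with every CG in capitals. They lie at chr2:31096501-31096750 (minus strand) for Fnbp1, chr8:119602647-119602896 (minus) for Taf1c, chr3:88629223-88629472 (plus) for Arhgef2, chr6:58596422-58596671 (plus) for Abcg2, chr1:88211709-88211958 (plus) for Ugt1a1 and chr4:147442864-147443113 (plus) for Zfp982.
Fnbp1: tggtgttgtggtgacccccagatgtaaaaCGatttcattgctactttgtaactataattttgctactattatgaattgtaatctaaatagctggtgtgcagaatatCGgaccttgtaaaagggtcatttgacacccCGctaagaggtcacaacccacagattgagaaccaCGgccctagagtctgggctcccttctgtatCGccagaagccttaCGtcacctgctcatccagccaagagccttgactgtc
Taf1c: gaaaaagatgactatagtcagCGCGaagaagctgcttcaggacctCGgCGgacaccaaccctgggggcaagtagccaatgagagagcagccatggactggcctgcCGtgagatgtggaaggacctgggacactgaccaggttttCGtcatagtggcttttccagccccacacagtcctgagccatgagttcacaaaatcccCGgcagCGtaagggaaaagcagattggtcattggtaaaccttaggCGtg
Arhgef2: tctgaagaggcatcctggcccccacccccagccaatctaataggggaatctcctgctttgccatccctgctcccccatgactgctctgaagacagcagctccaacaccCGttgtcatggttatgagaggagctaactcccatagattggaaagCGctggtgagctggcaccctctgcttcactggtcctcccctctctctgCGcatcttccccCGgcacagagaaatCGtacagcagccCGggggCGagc
Abcg2: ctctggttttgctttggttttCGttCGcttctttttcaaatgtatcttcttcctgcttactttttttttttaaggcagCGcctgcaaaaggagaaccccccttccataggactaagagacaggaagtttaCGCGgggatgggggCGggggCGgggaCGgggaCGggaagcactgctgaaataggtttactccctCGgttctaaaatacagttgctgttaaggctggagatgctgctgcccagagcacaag
Ugt1a1: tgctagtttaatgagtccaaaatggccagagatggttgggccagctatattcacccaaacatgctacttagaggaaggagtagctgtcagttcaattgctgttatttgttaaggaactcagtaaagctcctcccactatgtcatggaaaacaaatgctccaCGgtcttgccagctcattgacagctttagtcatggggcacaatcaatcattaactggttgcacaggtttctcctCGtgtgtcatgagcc
Zfp982: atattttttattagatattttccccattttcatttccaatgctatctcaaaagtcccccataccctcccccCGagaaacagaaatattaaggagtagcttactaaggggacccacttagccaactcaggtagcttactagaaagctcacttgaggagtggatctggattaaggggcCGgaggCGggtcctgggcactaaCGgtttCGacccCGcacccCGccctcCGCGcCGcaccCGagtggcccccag
These hold 6 CGs at Fnbp1, 9 at Taf1c, 7 at Arhgef2, 10 at Abcg2, 2 at Ugt1a1 and 11 at Zfp982. A CG in these letters is a place where capture could act, and says nothing of whether it was methylated.

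Fnbp1, a protein that bends membranes and binds formins, had the largest difference of these starts. Its region (chr2:31095517-31096834) gave 9.17 to 15.2 CPM in ileum (CPM, the count scaled to a common library size), with a median of 11.2, and 3.62 to 8.30 in colon, with a median of 7.06. The sections did not overlap and colon was lower in 7 of 7 mice, by -0.90 on the log2 scale (SE 0.20; edgeR adjusted p = 0.00338), or -0.80 without mouse 4 (edgeR adjusted p = 0.0234). The region at Taf1c, a subunit of the selectivity factor of RNA polymerase I, gave 11.8 to 18.3 CPM in ileum and 6.99 to 11.9 in colon (log2 -0.65, SE 0.17; edgeR adjusted p = 0.0157). That at Arhgef2, a microtubule-bound guanine nucleotide exchange factor, gave 11.9 to 18.4 and 6.16 to 13.7 (log2 -0.58, SE 0.17; edgeR adjusted p = 0.0326). Neither of these 2 passed without mouse 4 (edgeR adjusted p = 0.118 and 0.134). The wide region with the Abcg2 start (chr6:58588839-58605588) gave 81.1 to 148 CPM in ileum and 135 to 172 in colon (log2 0.32, SE 0.10; edgeR adjusted p = 0.0487), higher in 6 of 7 mice, and did not pass without mouse 4 (log2 0.18, edgeR adjusted p = 0.141). The region with the Zfp982 start (chr4:147427885-147443779) gave 144 to 248 in ileum and 260 to 303 in colon, with no overlap (log2 0.40, SE 0.10; edgeR adjusted p = 0.0136), and passed without mouse 4 (log2 0.30, edgeR adjusted p = 0.000144).

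Library totals ran from 1230157 counts (ileum of mouse 2) to 2902073 (ileum of mouse 4), with medians of 2270374 in ileum and 2082700 in colon. Over autosomal regions the correlation between libraries of a section had a median of 0.841 (0.773 to 0.868), against 0.826 between colon and ileum libraries and 0.818 between the colon and ileum of 1 mouse, and no 2 libraries held identical values. The ileum library of mouse 4 stood apart from the other 6. In it 22.1% of autosomal counts lay in regions under 1 kb wide, against 19.67% to 20.51% in the other ileum libraries, and it was the lowest of the 7 ileum libraries in 35 of the 36 stretches described below. What sets it apart was not tested, and results are given with and without mouse 4.

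Of 68863 autosomal regions tested, 922 were higher in colon and 484 were lower (edgeR quasi-likelihood test with the mouse as a block, Benjamini-Hochberg adjusted p under 0.05). These are 1.34% and 0.703% of the tested regions, 2.04% together, and 9648 regions had an unadjusted p under 0.05. The difference had the same sign in 7 of 7 mice at 529 of the higher and 247 of the lower regions. The log2 difference, colon minus ileum, had a median of 0.47 at the higher regions (0.32 to 1.34) and of -0.64 at the lower ones (-1.17 to -0.33), beside -0.01 over all tested regions. The higher regions were wider and more deeply counted, with a median width of 3958 bp and a median level of 32.1 CPM, than the lower ones, with 1967 bp and 11.9 CPM. All tested regions had medians of 1710 bp and 10.4 CPM. The split between directions rested on the scaling. With library totals 704 regions were higher and 714 lower, and with offsets fitted to abundance 571 and 553, so that 65.6% of calls were higher with TMM factors, 49.6% with totals and 50.8% with fitted offsets.

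The calls also rested on single mice and on the tool. Without mouse 4, 387 regions were higher (0.588% of 65786 tested) and 149 lower (0.226%), of which 354 and 130 were called with all 7 mice too. In that fit 921 of 921 tested higher regions kept a positive difference (median 0.36) and 464 of 464 lower ones a negative difference (median -0.56). The remaining mice had a part in choosing these regions, so the kept signs are largely fixed by the choice and are a description. Without mouse 7 the calls fell to 504 and 200, and without mouse 1 to 548 and 256. DESeq2's Wald test with the same block called 327 higher and 17 lower, of which 322 were calls of edgeR too. It gave an adjusted p to 3199 of the 68863 regions and an unadjusted p under 0.05 to 1505 higher and 1125 lower ones.

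Mouse by mouse, the median log2 difference over the 922 higher regions was 0.39, 0.27, 0.31, 1.05, 0.34, 0.41 and 0.38 in mice 1 to 7, so mouse 4 lay far above the other 6. Over the 484 lower regions it was -0.57, -0.37, -0.57, -0.88, -0.56, -0.42 and -0.64, again with mouse 4 at the end of the range. These GermFree values chose the regions and are a description. In the 5 ConvR mice, which had no part in the choice, the medians were 0.17, 0.29, 0.24, 0.34 and 0.38 over the higher regions and -0.20, -0.43, 0.01, -0.31 and -0.32 over the lower ones. The medians over the higher regions were thus above 0 in 5 of 5 ConvR mice and those over the lower regions below 0 in 4 of 5, mouse 3 being the exception.

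**Figure D1:**
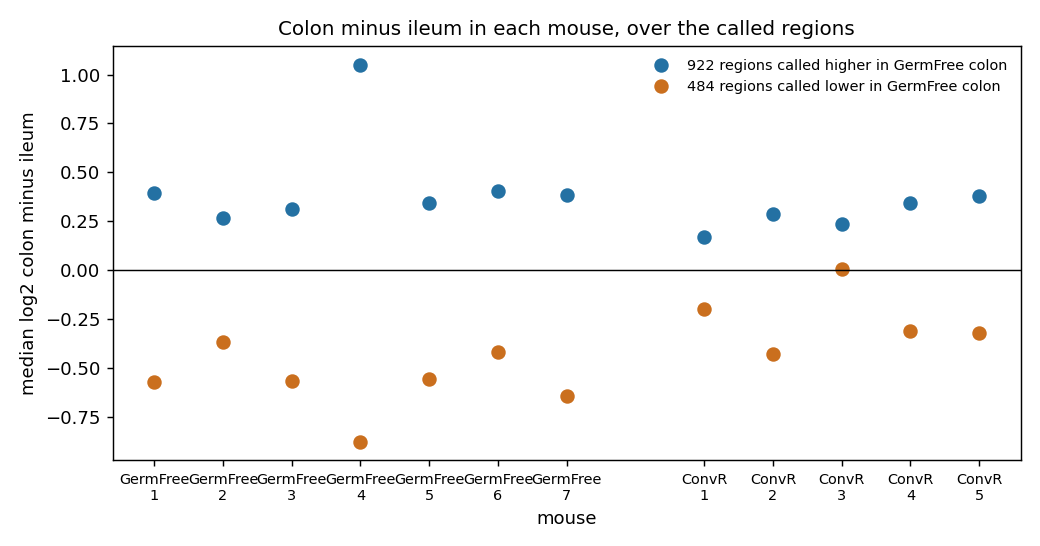
Median log2 difference, colon minus ileum (vertical axis), in each of 7 GermFree and 5 ConvR mice (horizontal axis) over the 922 regions called higher (blue) and the 484 called lower (orange) in GermFree colon. GermFree mouse 4 has the largest median in both sets (1.05 and -0.88), and the lower-set median of ConvR mouse 3 is 0.01. The split of calls between directions depended on the scaling.

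Of the called members of the gene lists, Gli2 had the largest fall in captured DNA. It carries hedgehog signals from the epithelium to the mesenchyme beneath it. The region inside the gene (chr1:118835822-118836923) gave 8.35 to 13.4 CPM in ileum, with a median of 9.33, and 0.593 to 8.60 in colon, with a median of 4.34. Colon was below ileum in 7 of 7 mice, although the highest colon library, that of mouse 4, lay just above the lowest ileum library. The log2 difference was -1.07 (SE 0.24; edgeR adjusted p = 0.00323), and -1.31 without mouse 4 (adjusted p = 0.000404). In ConvR mice the same region gave 8.50 ± 3.06 CPM in ileum and 8.35 ± 0.693 in colon (SD, n = 5), with a log2 difference of -0.10. The test of the difference between the models did not pass there (log2 -0.96, SE 0.35; unadjusted p = 0.00573, edgeR adjusted p = 1).

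Arhgef17 had the smallest adjusted p of the named lower regions. Its region, inside the gene (chr7:100928724-100930800), gave 14.7 to 25 CPM in ileum (median 16.5) and 5.89 to 13.2 in colon (median 8.60). The sections did not overlap, and the log2 difference was -1.03 (SE 0.16; edgeR adjusted p = 5.43e-05), or -0.92 without mouse 4 (adjusted p = 0.000302). Of the named regions, 4 further ones lower in colon did not overlap between sections either. They lay in Mdga1, a membrane-anchored protein of neurons (log2 -1.05), at Nbas, a factor of transport from the Golgi to the endoplasmic reticulum (-1.08), in Polr3a, the largest subunit of RNA polymerase III (-1.02), and in Stard13, a GTPase-activating protein (-0.98). At Mdga1 (chr17:29861259-29861755) the ileum libraries held 6.42 to 9.51 CPM and the colon libraries 1.19 to 5.89. At Polr3a (chr14:24479036-24479858) they held 6.42 to 11.4 and 2.69 to 6.16. These levels are low, and a few counts separate the libraries. The named falls were chosen for their size and the same sign in each mouse, which favours a lack of overlap. The share of all tested regions without overlap is not given here.

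The 15 largest called falls with the same sign in 7 of 7 mice also held Gm15199, a predicted gene, with the largest fall of all (log2 -1.17, SE 0.26; edgeR adjusted p = 0.00289). It went from 4.59 to 11.4 CPM in ileum (median 7.36) to 1.61 to 5.43 in colon (median 3.55). The others were at Vapb, a membrane-contact protein of the endoplasmic reticulum (-1.14), Klhdc8b, a kelch-repeat protein (-1.08), Cma2, a chymase of the mast cell family (-1.03), Vhl, which marks hypoxia-inducible factors for degradation (-1), Zfyve26, a lysosomal protein (-0.99), Ttc23l (-1), Gm3053 (-0.98) and a region 5841 bp from Cyp3a11, a cytochrome of drug clearance (-1.01). Klhdc8b (chr9:108448303-108449458) had 8.35 to 16.2 CPM in ileum and 2.37 to 9.63 in colon, and passed without mouse 4 as well (log2 -1.10, edgeR adjusted p = 0.000436). Without mouse 4, Vapb did not pass (log2 -0.87, edgeR adjusted p = 0.0896), and the regions at Gm15199, Vhl, Gm3053 and Cyp3a11 fell under the count filter and were not tested. The other 10 of the 15 passed without it.

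**Figure D2:**
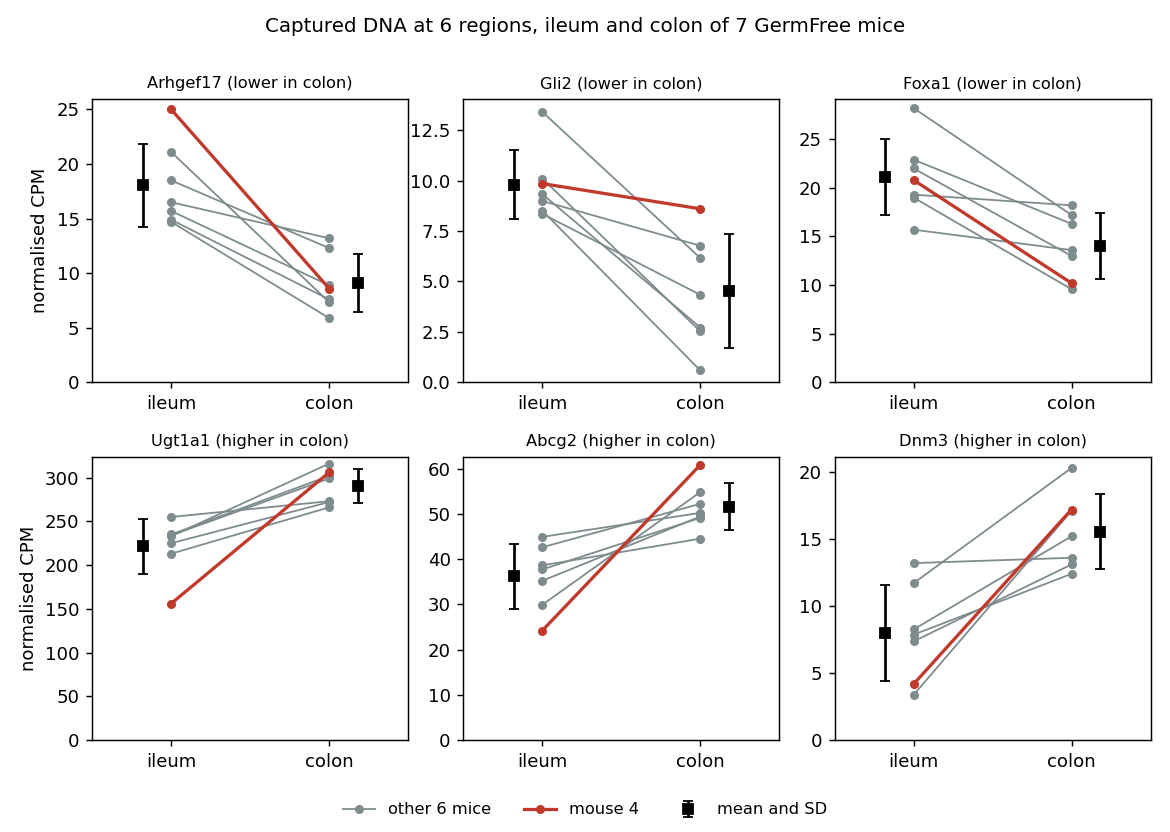
Normalised CPM (vertical axis) at 6 regions in ileum and colon of 7 GermFree mice, with lines joining the 2 libraries of a mouse (mouse 4 in red) and squares with bars for the mean and SD. The 3 upper regions fall from ileum to colon and the 3 lower ones rise, with no overlap between sections at Arhgef17 and Ugt1a1. Ugt1a1 kept its direction but not its call with offsets fitted to abundance (log2 0.08).

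Among the rises, the largest was at Gm5114, a predicted protein-coding gene (chr7:39411022-39411488). It gave 1.68 to 6.15 CPM in ileum (median 3.15) and 5.93 to 10.7 in colon (median 8.14), which is 1.34 on the log2 scale (SE 0.26; edgeR adjusted p = 0.000615). A region inside Dnm3, a dynamin that acts in membrane fission (chr1:162336815-162338105), gave 3.36 to 13.2 CPM in ileum (median 7.86) and 12.4 to 20.3 in colon (median 15.2), a rise of 0.96 on the log2 scale (SE 0.18; edgeR adjusted p = 0.000477). At both genes the sections overlapped by the highest ileum library only just passing the lowest colon library, and both passed without mouse 4 (log2 1.21 and 0.78). The rise at Sugct, a mitochondrial coenzyme A transferase (chr13:17134683-17135427), had no overlap, with 3.36 to 6.59 CPM in ileum and 7.34 to 12.9 in colon (log2 0.89, SE 0.23; edgeR adjusted p = 0.013), and did not pass without mouse 4 (log2 0.83, edgeR adjusted p = 0.0748). Gnal, a G protein subunit of olfactory and striatal neurons, did not overlap either (log2 0.86) and likewise did not pass without mouse 4 (adjusted p = 0.0849).

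The other named rises were at Gm39933 (log2 0.95), Hs3st4, a heparan sulfate sulfotransferase (0.94), Gm5578 (0.93), H2-T10, a non-classical class I histocompatibility gene (0.90), Tesmin, a metallothionein-like gene of the testis (0.86), and 6 regions outside genes. The nearest genes of 4 of these, 7899 to 234522 bp away, were Atp2b1, a calcium pump (1.07), Gm9631 (0.89), Scaf8 (0.86) and Ndufs5 (0.85). Without mouse 4, Hs3st4 (edgeR adjusted p = 0.178), Gm5578 (0.0598), H2-T10 (0.168), Tesmin (0.156) and 1 of the regions outside genes (0.0754) did not pass, and the region near Ndufs5 was not tested. The other rises of the 15 passed without it.

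Many rises lay side by side. Runs of 5 or more called regions with gaps of at most 100 kb formed 36 stretches, which held 383 called regions, 380 of them higher in colon and 3 lower. They took up 41.2% of the higher calls and 695, or 1.01%, of the tested regions. The stretches were chosen for these calls, and their levels are a description. The largest, on chr4:146891373-147817409, held 37 called of 81 tested regions and the genes Rex2, Zfp978, Zfp982, Zfp985, Zfp534 and Zfp984 among others, which encode KRAB zinc finger proteins, a family that binds transposons and spread by gene duplication. Its regions summed to between 3366 (mouse 4) and 5487 CPM in ileum, with a median of 5146, and to between 5848 and 6835 in colon, with a median of 6461. The second, on chr6:130547254-131043459, held 32 called of 42 regions with the predicted genes Gm38706 and Gm6600, and ran from 1895 to 3443 CPM in ileum (median 3033) and from 3483 to 4232 in colon (median 3955). In both stretches every colon library lay above every ileum library.

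The Klra genes, which encode Ly49 receptors of natural killer cells, had 17 called regions of 29 on chr6:130042204-130378014, with Klra1, Klra3, Klra4, Klra7, Klra8, Klra9 and Klra10. Their sum ran from 1040 to 1917 CPM in ileum (median 1724) and from 1994 to 2308 in colon (median 2253). A Pramel stretch, of genes first known from tumour antigens and active in the germline, on chr4:143615104-143910902, had 16 called of 23 regions, with 781.8 to 1308 CPM in ileum (median 1267) and 1437 to 1610 in colon (median 1565). The stretch at Rasgrp3, an activator of Ras in lymphocytes, and Fam98a on chr17:75489342-75849650 had 17 of 28, with 1563 to 2417 CPM in ileum (median 2285) and 2599 to 2919 in colon (median 2812). The stretch with Gm4884 on chr7:40982110-41326291 had 18 of 32, with 551.5 to 933.5 CPM in ileum (median 879.8) and 985.6 to 1184 in colon (median 1103). In these 4 stretches too the sections did not overlap, and mouse 4 had the lowest ileum sum.

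Other stretches held the Speer4 genes of the testis, H2-D1 with the H2-Q genes of the class I histocompatibility complex, the NKG2D ligand genes Raet1d, Raet1e and H60b, the Sirpb1 receptor genes of myeloid cells, Sp110, Sp140 and Sp100, the gene Cr2 of a complement receptor of B cells, and Cyp3a41a. Colon was higher than ileum in 7 of 7 GermFree mice in 35 of the 36 stretches, and the sections did not overlap in 29. The choice of stretches by their calls favours this, and the share over all regions is not given here. The median log2 difference of the regions of a stretch ran from 0.31 to 0.48 with all mice and from 0.19 to 0.44 without mouse 4, when 228 of their regions were called higher and again 29 stretches did not overlap. It stayed above 0 in 36 of 36 under the other scalings, from 0.28 to 0.46 with library totals and from 0.11 to 0.47 with offsets fitted to abundance, when 180 regions of the stretches were called higher. In the ConvR mice colon was higher in 5 of 5 mice in 36 of 36 stretches. At the Klra stretch the ConvR sums were 889.4 ± 198 CPM in ileum and 1136 ± 221 in colon (SD, n = 5), below both GermFree sections. Read placement among near-identical copies is not given in the sources read, which leaves the value of any single family member uncertain. Copy number was not tested.

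**Figure D3:**
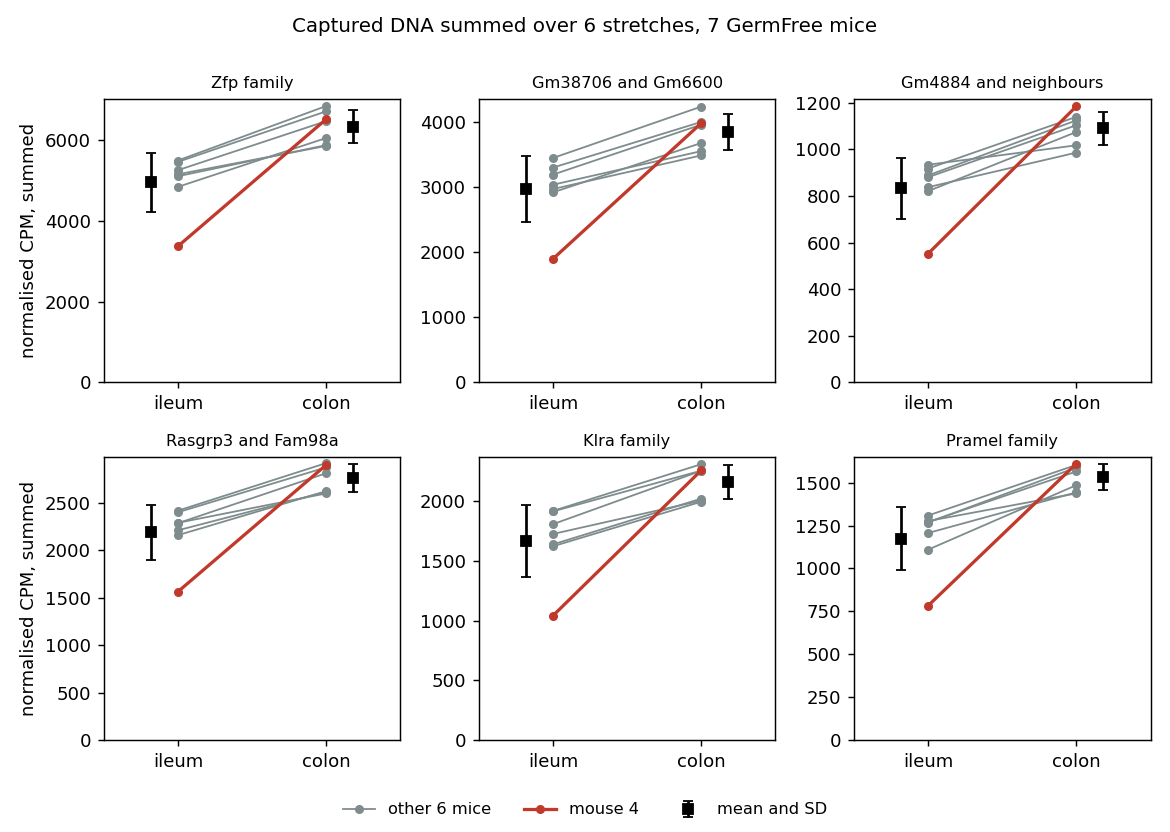
Normalised CPM summed over the regions of the 6 largest stretches (vertical axis) in ileum and colon of 7 GermFree mice, with lines joining the 2 libraries of a mouse (mouse 4 in red) and squares with bars for the mean and SD. Colon lies above ileum in 7 of 7 mice in each, and the ileum library of mouse 4 is the lowest. The median difference of each stretch stayed above 0 under the other scalings.

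Genes known for regional identity were read through 25 lists of textbook genes, drawn up with earlier results of these data known. Counts of calls per list are therefore a description. Each gene was read at regions that touch it or are at most 5 kb from it. Of 30 regional transcription factors 23 had a tested region, 81 regions in all. Of these 2 were lower in colon, 1 of them at Foxa1, and 0 were higher, with a median log2 difference of -0.03 beside -0.01 over all regions. Over all tested regions 0.703% were lower and 1.34% higher. The region within 5 kb of Foxa1 overlaps the neighbouring gene Ttc6 (chr12:57549310-57552315). It gave 15.7 to 28.2 CPM in ileum (median 20.8) and 9.58 to 18.2 in colon (median 13.6), lower in 7 of 7 mice with some overlap. The log2 difference was -0.60 (SE 0.14; edgeR adjusted p = 0.00681), or -0.53 without mouse 4 (edgeR adjusted p = 0.0444). It passed in 17 of 17 alternatives that gave an adjusted p. In ConvR mice the same region gave 20.7 ± 3.92 CPM in ileum and 17.2 ± 2.92 in colon (SD, n = 5).

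The members without a call included several known factors of the gut. At the region read for each, Gata4, a factor of the proximal gut, had a log2 difference of 0.22 and Hnf4a, a factor of the whole gut epithelium, 0.14. Satb1 had 0.34 (edgeR adjusted p = 0.141) and Meis1 -0.37 (edgeR adjusted p = 0.156).

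The HOX genes, which set position along the body axis, were little covered by the deposited regions. Of 42 genes 5 had a tested region, in 3 regions, and edgeR called 0 of these, with 0 at an unadjusted p under 0.05. DESeq2 gave none of the 3 an adjusted p. The region at Hoxa3 had a log2 difference of -0.29 (SE 0.26) and that at Hoxd3 0.06 (SE 0.23). Of 11 genes of ileal bile acid transport 10 were tested in 19 regions, and of 25 genes of colonic absorption 19 in 47 regions, and edgeR called 0. DESeq2 gave an adjusted p to only 1 of the 19 and 0 of the 47, so its 0 calls there decide little. At an unadjusted p under 0.05 edgeR had 1 higher and 1 lower region for bile acids and 0 and 2 for colonic absorption. Over all tested regions 2.04% were called in either direction, so 0 edgeR calls in 3, 19 or 47 regions is near that share.

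The best known members of both lists did not pass. The region within 5 kb of Slc10a2, the apical bile acid transporter of the ileum, had 11.7 ± 2.51 CPM in ileum and 9.88 ± 2.80 in colon (SD, n = 7). Fabp6, its intracellular partner, had 13.2 ± 2.69 and 14.7 ± 2.81, and Fgf15, the hormone released on bile acid uptake, 9.81 ± 1.61 and 9.29 ± 1.52. Of the colonic genes, Car1, a carbonic anhydrase, had 8.07 ± 2.25 and 10.2 ± 2.32. Scnn1a, a subunit of the epithelial sodium channel, had 22.95 ± 2.70 and 19.2 ± 3.46, and Slc26a3, the chloride exchanger, 11.4 ± 2.16 and 12.2 ± 1.75.

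Among genes of small intestinal absorption 31 of 39 were tested in 86 regions, with 2 lower in colon and 0 higher, beside 0.703% lower and 1.34% higher over all regions. These were in Cybrd1, an iron reductase of the brush border, and Enpep, a brush border peptidase. Cybrd1 (chr2:71119375-71121228) gave 10.8 to 17.0 CPM in ileum (median 12.7) and 4.15 to 11.7 in colon (median 8.47; log2 -0.64, SE 0.18; edgeR adjusted p = 0.0301). Enpep (chr3:129316273-129317828) gave 9.82 to 15.2 in ileum (median 12.8) and 5.89 to 10.6 in colon (median 7.53; log2 -0.61, SE 0.19; edgeR adjusted p = 0.045). Neither passed without mouse 4, with log2 differences of -0.58 and -0.53 there (edgeR adjusted p = 0.13 and 0.21).

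Genes of xenobiotic metabolism had the most higher calls of any list, 4 of 20 regions at 3 of 12 tested genes, and 0 lower, where 1.34% of all tested regions were higher and 0.703% lower. The list was drawn up with earlier results of these data known, so its rank is a description. The share called higher rises with depth, to 7.93% in the highest decile of mean CPM. Abcg2, an efflux pump for drugs, urate and porphyrins, had 2 of the 4. The region further into the gene (chr6:58608234-58611960) gave 24.2 to 44.9 CPM in ileum (median 37.7) and 44.5 to 60.8 in colon (median 50.2). Colon was higher in 7 of 7 mice and the sections overlapped only between 44.5 and 44.9. The log2 difference was 0.55 (SE 0.11; edgeR adjusted p = 0.000535), or 0.42 without mouse 4 (edgeR adjusted p = 0.00516), and it passed in 18 of 18 alternatives. The wide region at the Ugt1a genes (chr1:88211598-88228779) gave 156 to 255 CPM in ileum (median 233) and 266 to 316 in colon (median 299), with no overlap. Its log2 difference was 0.40 (SE 0.10; edgeR adjusted p = 0.0124), or 0.31 without mouse 4 (edgeR adjusted p = 7.32e-05). With offsets fitted to abundance it was 0.08 and did not pass (edgeR adjusted p = 0.582), nor did it without mouse 7. Abcb1a, the P-glycoprotein pump (chr5:8601275-8602376), gave 6.71 to 11.4 and 8.47 to 16.7 CPM (log2 0.59, SE 0.18; edgeR adjusted p = 0.0481) and did not pass in 10 of 17 alternatives. The list's median log2 difference was 0.02, and its calls numbered 2 with library totals and 1 with offsets fitted to abundance.

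Of hedgehog and BMP genes 24 of 29 were tested in 86 regions, with 1 lower, at Gli2, and 1 higher, at Smad3, a mediator of TGF-beta signals. These counts are near the shares over all regions (0.703% lower and 1.34% higher), and the list's median log2 difference was 0.01. The region at Smad3 and Aagab (chr9:63643914-63649031) gave 14.7 to 28 CPM in ileum (median 26.1) and 23.7 to 38.0 in colon (median 32.9; log2 0.43, SE 0.12; edgeR adjusted p = 0.0228). It did not pass without mouse 4 (log2 0.41, edgeR adjusted p = 0.0699). Of developmental regulators outside HOX 24 of 66 were tested in 46 regions, and 2 were lower, at Irx4 (log2 -0.51, SE 0.15; edgeR adjusted p = 0.04) and near Tbx3 (log2 -0.50, SE 0.15; edgeR adjusted p = 0.0498). These did not pass in 11 of 16 and 13 of 17 alternatives.

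Markers of other cells of the gut wall passed at single genes. Kit, the receptor that marks interstitial cells of Cajal and mast cells (chr5:75619877-75622136), gave 11.8 to 19.3 CPM in ileum (median 16.3) and 6.85 to 13 in colon (median 10.4). The log2 difference was -0.64 (SE 0.16; edgeR adjusted p = 0.014), lower in 6 of 7 mice, and it was the 1 called of 66 regions of smooth muscle and interstitial cells, whose median was -0.09. Of 64 regions of B cells and plasma cells 3 were higher, all at Cr2, and 1 was lower, a region in Bcl9l within 5 kb of Cxcr5, a chemokine receptor of lymphoid follicles. Over all regions 1.34% were higher and 0.703% lower, and the list had 8 higher and 7 lower regions at an unadjusted p under 0.05 and a median log2 difference of -0.03. Cr2 (chr1:195149833-195155000) gave 21.6 to 47.8 CPM in ileum (median 30.9) and 24.3 to 56.9 in colon (median 39.6; log2 0.41, SE 0.11; edgeR adjusted p = 0.0177). The region near Cxcr5 differed by -0.41 (log2, SE 0.12; edgeR adjusted p = 0.0337). A region within 5 kb of Defa26, a Paneth cell defensin, was higher in colon, with 2.65 to 6.71 CPM in ileum and 6.08 to 10.1 in colon (log2 0.80, SE 0.23; edgeR adjusted p = 0.0367), as 1 of 11 regions of its list. Regions were lower at Dnmt1, the maintenance methyltransferase (log2 -0.46, SE 0.14; edgeR adjusted p = 0.0389), and Nod1, a sensor of bacterial peptidoglycan (-0.67, SE 0.20; edgeR adjusted p = 0.0411). Each of these was the 1 call of its list, among 49 and 50 regions. Without mouse 4 none of Kit, Cr2, Cxcr5, Defa26, Dnmt1 and Nod1 passed, with edgeR adjusted p from 0.0631 at Dnmt1 to 0.287 at Cr2.

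In 15 of the 25 lists edgeR called 0 regions, where 2.04% of all tested regions were called in either direction. DESeq2 called 0 in these lists too, but gave an adjusted p to at most 7 regions of a list. Besides the HOX, bile acid and colonic lists these were goblet, enteroendocrine and tuft cells, stem cells and Wnt signalling, pan-epithelial genes, fibroblasts, endothelial cells, enteric neurons and glia, T cells, natural killer cells, myeloid and mast cells, and adipocytes. At an unadjusted p under 0.05 each had 0 to 6 higher and 0 to 7 lower regions by edgeR. Their median log2 differences ran from -0.27 for adipocytes, with 6 regions, to 0.05 for tuft cells, with 42. With 3 to 101 regions to a list, 0 calls in a single list is near the share over all regions and decides little.

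**Figure D4:**
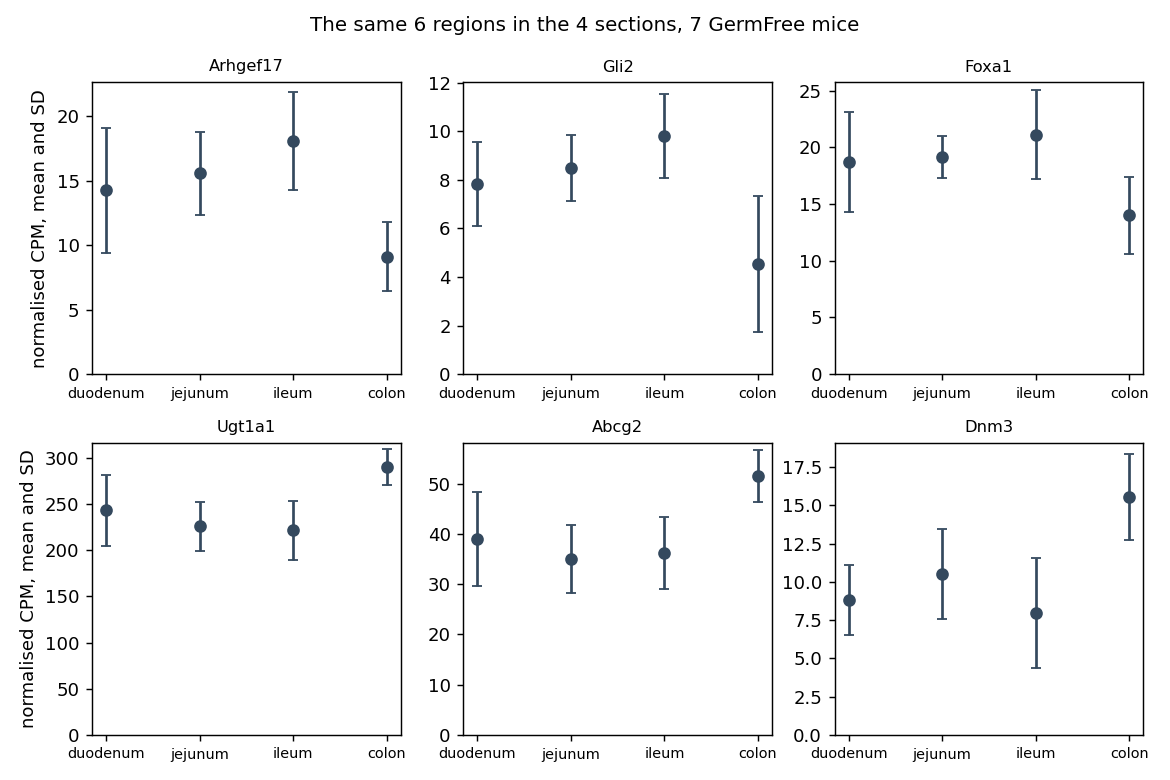
Mean and SD of normalised CPM (vertical axis) in the duodenum, jejunum, ileum and colon of 7 GermFree mice (horizontal axis) at the 6 regions of the paired plot. The colon holds the lowest mean at Arhgef17, Gli2 and Foxa1 and the highest at Ugt1a1, Abcg2 and Dnm3.

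The share of captured DNA by class of region was compared between sections. Regions over 2 kb wide held 57.07% ± 0.873 of autosomal counts in ileum and 58.35% ± 0.281 in colon (SD, n = 7), higher in 7 of 7 mice, and regions under 1 kb held 20.51% ± 0.757 and 19.34% ± 0.259, higher in 0 of 7. Regions in gene bodies held 54.02% ± 0.432 in ileum and 53.46% ± 0.131 in colon, and regions outside genes 23.57% ± 0.188 and 23.94% ± 0.124. The exact two-sided test over the 128 sign changes gave p = 0.0156 for each of these 4, the smallest p that 7 mice allow, and an adjusted p of 0.0234 over 6 classes. The shares within 1 kb of a gene end (22.41% and 22.6%; exact adjusted p = 0.0781) and of regions of 1 to 2 kb (22.42% and 22.3%; exact adjusted p = 0.075) did not pass. The classes are shares of 1 total, so a rise in 1 class lowers others. The 36 stretches, with 1.01% of the tested regions, are counted in these shares, and their part in the differences was not tested. The largest stretch alone went from a mean of 4948 CPM in ileum to 6325 in colon. Without mouse 4 the difference at regions over 2 kb was 0.902 percentage points in place of 1.28. Without any 1 of the 7 mice the same 4 classes passed. This was fixed in advance, since each had the same sign in 7 of 7 mice. Without mouse 2 the class of 1 to 2 kb passed too (exact adjusted p = 0.0374).

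Calls were also counted by class. Of regions over 2 kb 2.57% were called higher and 0.865% lower, and of regions under 1 kb 0.353% and 0.617%. In the highest decile of mean CPM, 7.93% were called higher and 1.31% lower, against 0.116% and 0.479% in the lowest decile. More counts narrow the error of a region, so these shares depend on depth as well as on the size of the difference. Of regions outside genes 1.96% were higher and 0.535% lower, of those in gene bodies 0.719% and 0.641%, and of those within 1 kb of a gene end 2.37% and 1.13%. Within 1 kb of a start site 94 of 3658 regions were called higher and 30 lower. By chromosome the higher share ran from 0.481% on chromosome 15 to 2.57% on chromosome 4, which holds 5 of the stretches.

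**Figure D5:**
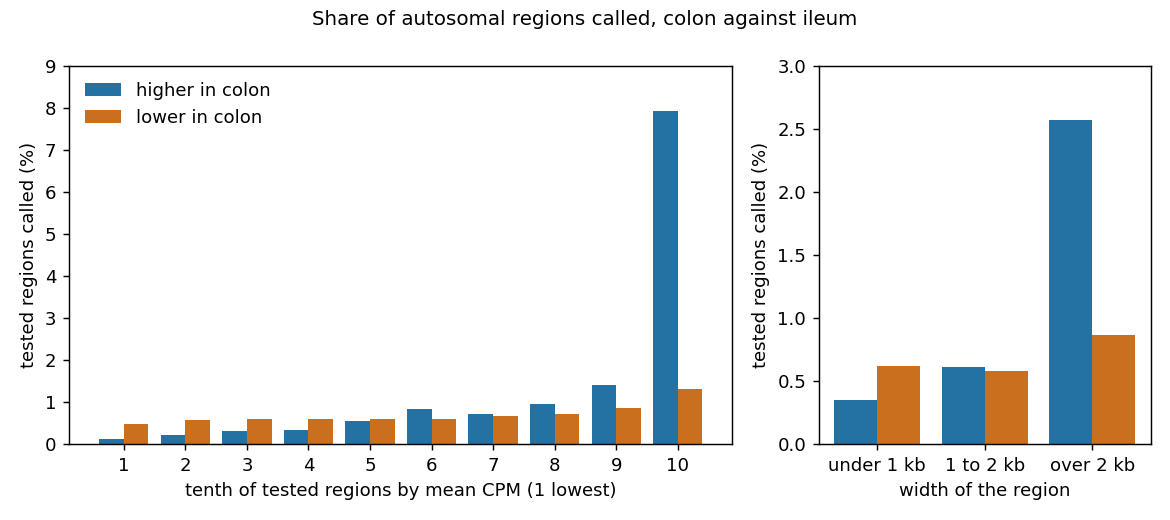
Share of tested autosomal regions called higher (blue) or lower (orange) in colon, in percent (vertical axis), by decile of mean CPM (left) and by width (right). Higher calls reach 7.93% in the top decile and 2.57% of regions over 2 kb, and lower calls stay between 0.479% and 1.31%.

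The duodenum and jejunum of the same mice, which had no part in the calls, were read at the same regions. The regions were chosen for a difference between colon and ileum, so the ranks of these 2 sections are in part fixed by the choice and are a description. The colon had the highest mean of the 4 sections at 919 of the 922 higher regions and the lowest at 482 of the 484 lower ones. The ileum was the lowest section at 67.9% of the higher regions and the highest at 79.1% of the lower ones, so that at the others the duodenum or jejunum lay beyond it. The median log2 difference from the ileum was 0.12 in the duodenum and 0.05 in the jejunum at the higher regions, and -0.17 in both at the lower ones. The duodenum and jejunum thus lay nearer to the ileum than to the colon in these medians (log2 -0.33 and -0.40 from the colon at the higher regions, 0.41 and 0.43 at the lower ones).

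The 5 ConvR mice gave a second reading of the same sections. Fitted alone, they had 217 regions higher (0.293% of 74023 tested) and 114 lower (0.154%) in colon. At the GermFree higher regions with a ConvR value, 866 of 912 (95%) were higher in ConvR colon too, with a median log2 difference of 0.30 against 0.47, and at the lower ones 424 of 473 (89.6%) were lower, with -0.27 against -0.64. Over all regions tested in both, 49.2% were higher in ConvR colon. Of the higher calls 126 were shared, which is 13.7% of the GermFree and 58.1% of the ConvR calls, and of the lower ones 14, or 2.89% and 12.3%. The GermFree medians are of regions chosen for a large difference in those mice, and the models differ in the number of mice. The ConvR counts depended on single mice. Leaving out mice 1 to 5 in turn gave 185, 63, 203, 88 and 21 higher and 53, 63, 164, 79 and 41 lower regions. Without the mouse as a block edgeR called 0 in either direction, with an unadjusted p under 0.05 at 2369 higher and 2650 lower regions, beside 3290 and 3581 with the block.

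Whether the difference between colon and ileum depended on the model was tested with an interaction of section and model over 24 libraries. It passed at 24 of 91239 autosomal regions (0.0263%), each with a higher signed log2 difference, colon minus ileum, in GermFree than in ConvR mice. These included sites in or within 5 kb of Plxdc2 (log2 2.15, SE 0.45; edgeR adjusted p = 0.0163), Cacng2, a subunit of neuronal calcium channels and receptors (2.03), Zfp266 (1.99), Atad3a, a mitochondrial membrane ATPase (1.87), Stx12, a syntaxin of endosomes (1.84), Lrrc69 (1.81), the predicted genes Gm34259 (2) and Gm24105 (1.93), and sites near Shisa2 (1.86) and Hdhd5 (1.85). At Gm34259 colon minus ileum was 0.14 (SE 0.26) in GermFree and -1.88 (SE 0.20) in ConvR mice on the log2 scale. At Lrrc69 it was 0.75 (SE 0.25) and -1.06 (SE 0.25). Neither site passed in GermFree mice (edgeR adjusted p = 0.859 and 0.0882), and both passed in ConvR mice (edgeR adjusted p = 2.62e-12 and 0.0169). Yet colon was higher than ileum in 2 of 5 ConvR mice at Gm34259, and in 0 of 5 at Lrrc69. The ConvR ileum libraries at Gm34259 ran from 4.94 to 138 CPM (median 20.2), the highest being mouse 1 (138) and mouse 3 (68.3). At Plxdc2 the GermFree libraries gave 2.75 ± 1.70 CPM in ileum and 4.57 ± 1.41 in colon, and the ConvR colon libraries 4.37 ± 2.04. The ConvR ileum libraries ran from 1.90 to 29.4 with a median of 7.23. The highest was mouse 1 (29.4), followed by mouse 3 (17.1). ConvR mouse 1 had the highest of the 5 ileum values at each of these 10 sites. The interaction passed at 0 regions without ConvR mouse 1 and at 1 without ConvR mouse 3. It passed at 10 without GermFree mouse 4, 15 without GermFree mouse 1, 43 without ConvR mouse 2 and 39 without ConvR mouse 4. DESeq2 called 0, with 687 regions at an unadjusted p under 0.05, and edgeR without ConvR mouse 1 had 4019 such regions, beside 4035 with all mice.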

How the data were processed

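MethylMiner beads, which carry a methyl-CpG-binding domain, were used to enrich methylated fragments before sequencing. The submitters' processing notes name Trim Galore 0.3.7, cutadapt 1.4.2, MACS2, featureCounts and the build mm10. Not given in the sources used here are the aligner, how duplicate and multiply placed reads were treated, and whether peaks were called on pooled libraries. Per the file headers, the deposited table holds raw counts per region and library. The deposited peak list gives each region's position and the authors' score, used only to split regions at its median of 10. The region names all begin with GermFree, and whether regions methylated mainly in ConvR mice are missing was not tested.

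Counts were tested with edgeR 4.0.16 (limma 3.58.1, R 4.3.3) by the quasi-likelihood F-test, with TMM factors, filterByExpr and the mouse as a block. P-values were adjusted over tested regions of all chromosomes, and autosomal calls under 0.05 were counted. DESeq2 1.42.0 was an alternative. CPM are TMM-scaled, and SDs are over mice. Sections of 1 mouse come from the same animal, so they are paired. The correlation of their deviations from the section means had a median of 0.00516 (-0.0563 to 0.0247). Shares by class were compared with an exact two-sided sign-change test. Start sites and genes came from RefSeq tables (GRCm38.p6), which hold no exons, so regions were classed as within 1 kb of a gene end, in a gene body or outside genes. The edgeR fit was run on simulated counts with the same spread in all regions and no library set apart. That checks the working of the fit, not its error rate in these data. Other work used R's data.table (version 1.17.8), Python 3.11.15, NumPy 2.4.6, pandas 2.3.3 and Matplotlib 3.10.9.

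Members and lists were chosen with earlier results of these data known. Named regions were the 15 largest called differences in each direction with a mean of at least 1 CPM and the same sign in 7 of 7 mice. To these were added up to 6 called genes per list, members of 4 lists without a call at their most deeply counted region, up to 10 interaction regions by size and the 6 largest stretches. Some members of the lists are not reported here.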

Additional observations from a re-analysis of the deposited data

Results flagged for a closer look

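Of 104 groups of 7 libraries looked at, 12 held a library far from the others. Chance gives about 1 in 20 among unrelated groups. These groups share libraries and were chosen with them, so that rate does not apply and the count is a description. Of the 12, 7 were the ileum library of mouse 4. It was the lowest ileum library at Ugt1a1 (156 CPM, the others 213 to 255) and in the 6 largest stretches. These were the stretches on chromosome 4 (3366 CPM in the one with Zfp982 and 781.8 in the Pramel one), chromosome 6 (1895 in the one with Gm38706 and 1040 in the Klra one), chromosome 7 (551.5) and chromosome 17 (1563). Colon held the higher value in 6 of 6 mice at Ugt1a1 without mouse 4.

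The other 5 were in different mice. Colon was lowest in mouse 2 at Gm39933 (9.63 CPM, the others 12.9 to 15.1) and in mouse 3 at Gm5578 (7.34, the others 11.3 to 11.8), and highest in mouse 5 at Nbas (7.06, the others 2.15 to 4.11). Ileum was highest in mouse 6 at Gli2 (13.4 CPM, the others 8.35 to 10.1) and lowest in mouse 5 near Cyp3a11 (3.95, the others 5.4 to 6.29).

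The difference between colon and ileum differed between GermFree and ConvR mice by the interaction test at the 10 sites named above. The log2 interactions were 2.145 at Plxdc2, 2.027 at Cacng2, 2.003 at Gm34259, 1.988 at Zfp266, 1.932 at Gm24105, 1.874 at Atad3a, 1.859 near Shisa2, 1.848 near Hdhd5, 1.837 at Stx12 and 1.812 at Lrrc69. The ileum library of ConvR mouse 1 was the highest ConvR ileum library at each, and its part in these results was measured by leaving that mouse out, when 0 regions passed with edgeR.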

How the results depend on the processing

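Leaving aside the fits without 1 mouse, the total of 1406 calls stayed within 1.5 times under 9 of 10 other settings fixed with the design. Without the replicate block it was 1301 (828 higher, 473 lower; 1218 of the 1406 among them). DESeq2 gave 344 (327 and 17), offsets fitted to abundance 571 higher, and leaving out the stretches, added after the data were seen, 937 (557 higher). Leaving out 1 GermFree mouse, also fixed with the design, gave 536 to 1593 calls, 387 to 1042 higher and 149 to 551 lower. Some of these totals lay beyond 1.5 times. The cause was not tested. The interaction count of 24 became 0 without the replicate block (3787 unadjusted) and 0 with DESeq2 (687), 10 to 33 without 1 GermFree mouse and 0 to 43 without 1 ConvR mouse, and 0 without ConvR mice 1 and 3 (4048). For ConvR mice alone the counts were 0 and 0 without the replicate block, 21 to 203 higher and 41 to 164 lower without 1 mouse, and 272 and 191 without mice 1 and 3.

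Of 46 named regions, 41 kept their call without the replicate block, 42 with fitted offsets and 45 with library totals, and none changed sign. The named regions were chosen with the same libraries, so their kept signs are a description. Of the 41 that could be tested without mouse 4, 20 passed. Shares by class kept their direction, which without 1 mouse could not fail for the 4 classes with the same sign in 7 of 7 mice. With regions of score at or above the median, the gene end class rose by 0.554 and the 1 to 2 kb class fell by 0.594 percentage points, and over all chromosomes the latter fell by 0.235, and each then passed. Without 1 mouse the differences ran from -0.639 to -0.396 in gene bodies, 0.0856 to 0.225 at gene ends, 0.31 to 0.415 outside genes, -0.138 to -0.0659 for 1 to 2 kb, 0.902 to 1.48 over 2 kb and -1.34 to -0.836 under 1 kb. Depth limits regions of few counts, where a few reads set the CPM.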

Other observations

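Outside the autosomes, 345 of 1250 tested regions (27.6%) passed in the same comparison, 336 of them higher and 9 lower in GermFree colon (edgeR, adjusted p under 0.05). These regions were kept out of the counts above.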
